A study of Rattus norvegicus with 12 samples.

Results

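Of the 768 wells of a pair of PCR cards run on rat sperm and rat mammary gland, 12 hold controls, and among the miRNA assays of the remaining wells 48 gave an earlier signal in the mammary gland than in sperm by at least 2 PCR cycles. The measure was the threshold cycle (Ct), the cycle at which the fluorescence of a well crosses a threshold, where an earlier cycle stands for more template and 1 cycle for about a doubling. The assays were selected on these Ct values: an assay was included when its Ct was under 35 in at least 3 of the 6 mammary gland samples and its mean Ct over them was at least 2 cycles below its mean over the 6 sperm samples, with 40, the last cycle, given to a well that never crossed (undetermined). The tissue gap is therefore what defined these assays, and it is described here without a test. The 48 assays were 6.35% of all miRNA assays on the cards and 12% of the 400 that met the detection limit in the mammary gland.

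Sperm came from Sprague Dawley male rats on a high-fat diet based on either lard (rats 9, 10 and 11) or corn oil (rats 18, 19 and 20). The methods state that the males ate these diets from a young age until mating, were then moved to chow, and were killed once the females were pregnant, so they were no longer on the high-fat diet when sperm was taken. Mammary gland came from 50-day-old Sprague Dawley daughters of lard-fed sires (daughters 25.5, 29.1 and 31.2) or of corn oil-fed sires (daughters 41.6, 49.2 and 60.5), so that all 4 groups of 3 rest on a high-fat diet fed to male rats, and the labels name the lard groups as controls. The study also fed a control diet to a separate group of male rats, and no sample here comes from that group. The labels name single animals while the description of the series speaks of RNA pooled before profiling, so p-values measure the spread between these samples, which may be in part technical. Each sample filled 2 cards of equal size.

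A miRNA is a short RNA that guides a silencing complex to messenger RNAs and lowers their translation or stability, and many miRNAs are restricted to particular tissues or cell types. Mature sperm are nearly transcriptionally silent and carry a small pool of RNA, whereas the mammary gland holds epithelial ducts embedded in a fat pad with vessels, connective tissue and blood cells, each with miRNAs of its own. The wells are numbered and are not paired with miRNA names in the sources used here, so the assays are given by well number, no sequence can be printed for them, and the tissue labels could not be checked against marker miRNAs. In whole tissue, fewer cells of a type and less RNA per cell cannot be told apart.

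Daughters 49.2 and 60.5 stood apart in how their Ct values were distributed. Of the crossings of the 48 assays, 64.4% in daughter 49.2 and 65.9% in daughter 60.5 lay within 0.1 of a whole cycle, against 15.8 to 47.8% in the other 10 samples. For the remaining assays these shares were 54.0% and 65.5%, against 22.8 to 33.9%. Both are daughters of corn oil-fed sires, so the counts of lower and higher assays, their median difference and the named wells are given with and without them in the mammary gland. Without them the corn oil group is daughter 41.6 alone, the spread comes from the 3 lard daughters, and the lone sample is assumed to vary like them. The part of the whole-cycle values in the results was not tested. The 48 assays crossed in 42 to 48 cases per mammary gland sample and in 19 to 25 per sperm sample, where all assays crossed in 398 to 494.

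**Figure D1:**
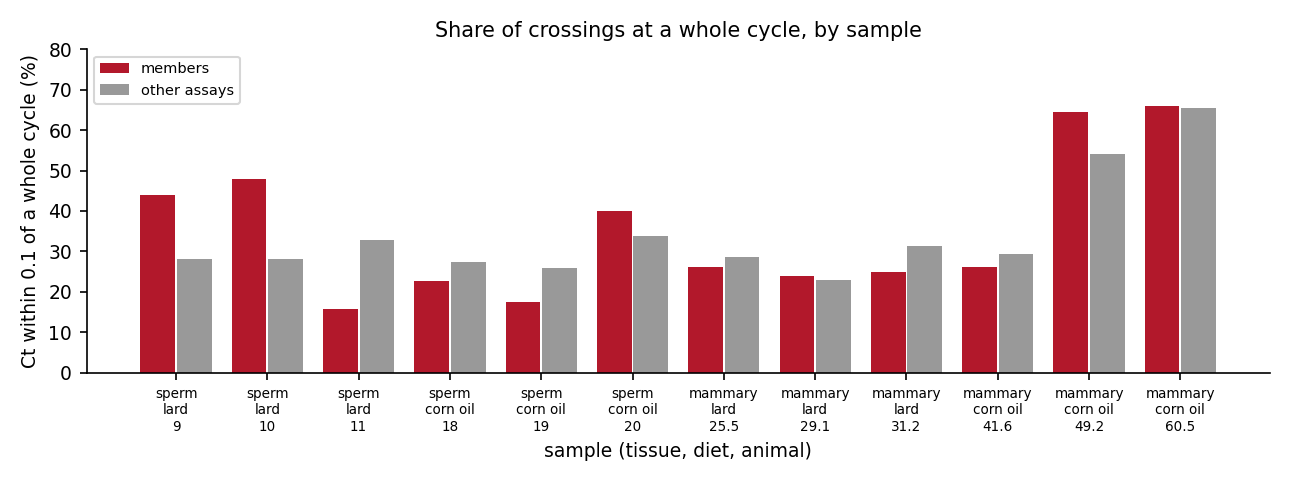
Bars give the share of crossings (%) whose Ct lay within 0.1 of a whole cycle in each of the 12 samples, for the 48 assays (red) and all other assays (grey). Daughters 49.2 and 60.5 reached 64.4% and 65.9% for the 48 assays, above the 15.8 to 47.8% of the other samples.

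The 48 assays ran against the general direction of the cards. Over the 400 assays detected in the mammary gland, the median gap (sperm Ct minus mammary gland Ct) was -1.81 cycles, with quartiles of -4.16 and 0.12, so that most assays crossed earlier in sperm and 107 crossed earlier in the mammary gland by any amount. The reference wells themselves had a gap of -2.80 cycles on the first card and -3.23 cycles for those of the second. Relative to them 154 assays, all 48 included, met the rule. The other control of each card, an assay held in 4 wells, had a gap of only -0.57 and -0.11 cycles. The controls thus differed in the tissue gap they gave. The 48 had a median gap of 4.64 cycles and ranged from 2.22 to 19.1. The nearest assays inside the limit had gaps of 2.22, 2.22 and 2.31 cycles, and the nearest outside it 1.84, 1.89 and 1.95. A further 18 assays had a gap of at least 2 cycles but a Ct under 35 in fewer than 3 mammary gland samples.

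In the mammary gland the 48 assays ran from abundant to barely detected. The mean mammary gland Ct of the 48 had a median of 27.7 and ran from 16.4 to 36.3, against a median of 28.6 for the other detected assays. In sperm the medians were 35.8 and 25.6, a contrast that follows in part from the selection. By mean mammary gland Ct, 4 of the 48 lay under 20, 10 between 20 and 25, 15 between 25 and 30, 15 between 30 and 35 and 4 above 35. Of the 10 most abundant detected assays in the mammary gland 2 were among the 48, as were 7 of the first 50 and 14 of the first 100. A Ct under 35 was found in all 6 mammary gland samples for 30 of them, in 5 samples for 7, in 4 for 5 and in 3 for 6.

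**Figure D2:**
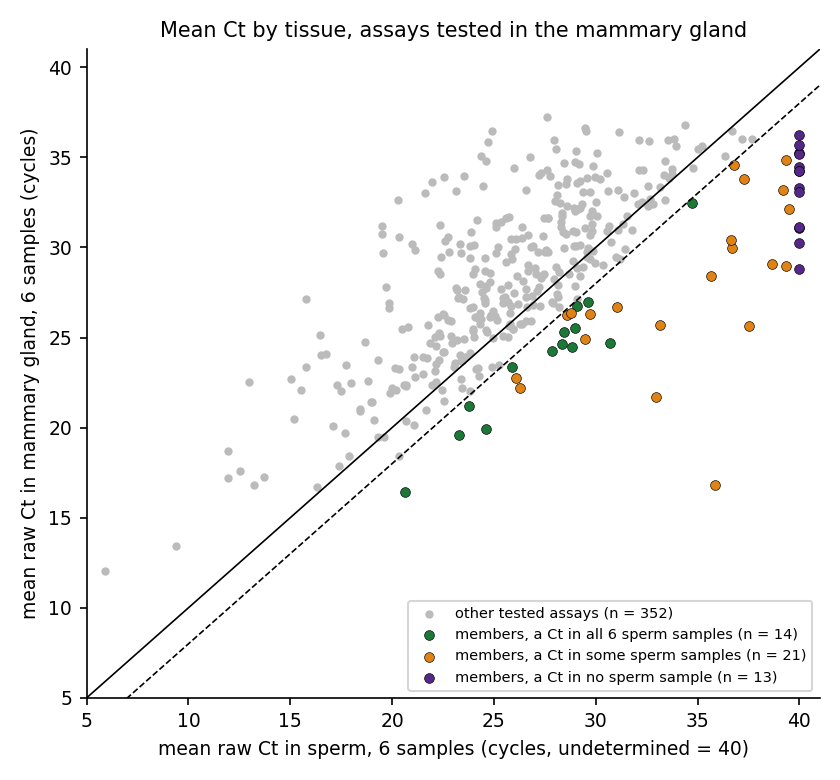
Each point is an assay detected in the mammary gland, placed by its mean raw Ct in sperm (horizontal, cycles) and in the mammary gland (vertical, cycles), with the solid line at equal Ct and the dashed line 2 cycles below it. The 14 assays measured in all 6 sperm samples (green) lie close under the dashed line, the 21 measured in some sperm samples (orange) spread away from it, and the 13 with no sperm Ct (purple) stand at 40.

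The assays fell into 3 kinds by how often they crossed in sperm. In 14, sperm gave a Ct in all 6 samples, in 21 in some samples and in 13 in none. Of all 400 detected assays, 83.2% crossed in every sperm sample, compared with 29.2% of the 48.

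The 14 assays measured in all 12 samples are those whose gap does not rest on the value of 40 given to undetermined wells. Their gap ran from 2.22 to 6.01 cycles with a median of 3.50, and in 8 of them every mammary gland sample crossed before every sperm sample. Well 90, on the first card, had the lowest mean mammary gland Ct of the 48, with 16.3, 18.6 and 15.6 in daughters of lard-fed and 15.9, 13.9 and 18.0 in daughters of corn oil-fed sires. In sperm its Ct was 21.0, 20.5 and 20.6 in lard-fed and 21.1, 21.1 and 19.5 in corn oil-fed male rats. The tissues did not overlap, the sperm values lay within 2 cycles of each other, and the mean gap was 4.22 cycles.

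The widest gap of these 14 belonged to well 228, chosen after its values were seen. It crossed in sperm at 31.5, 31.0 and 31.2 (lard) and at 31.5, 31.0 and 28.04 (corn oil), and in the mammary gland at 23.4, 24.9 and 23.7 (lard) and at 24.2, 25.03 and 27.0 (corn oil). The latest mammary gland sample, daughter 60.5, still crossed before the earliest sperm sample, rat 20, and the mean gap was 6.01 cycles. Over the 14 assays the SD of Ct across 6 samples had a median of 1.17 cycles in the mammary gland and 1.14 in sperm.

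The 21 assays with a Ct in some sperm samples only had wider gaps, from 2.22 to 19.1 cycles with a median of 6.0. Of these, 7 crossed in 1 sperm sample, 6 in 2, 3 in 3 and 5 in 5. The widest gap of all, 19.1 cycles, was that of well 360 on the first card. It crossed in the mammary gland at 17.2, 19.0 and 15.3 (lard) and at 17.7, 13.8 and 17.9 (corn oil). In sperm it crossed at 15.2 in rat 9 and was undetermined in the other 5. The single sperm value lay within the range of the daughters, so the gap of this abundant assay comes from the 5 wells at 40.

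Well 224, with the second widest gap of 11.9 cycles, had the same pattern. Its sperm Ct was 25.1 in rat 9 and undetermined elsewhere, and its mammary gland Ct was 23.7, 24.8 and 21.95 (lard) and 23.0, 29.5 and 31.0 (corn oil). Daughters 49.2 and 60.5 were the late ones, both later than the sperm of rat 9. Well 502 on the second card, chosen after its values were seen, crossed in sperm at 18.8 and 20.1 in rats 19 and 20 alone, earlier than all 6 mammary gland values of 23.0 to 28.1.

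Taking only the wells that crossed, 5 of these 21 assays kept a gap of 2 cycles or more, 7 had a gap between 0 and 2 cycles and 9 crossed earlier in sperm. The range was -6.20 to 7.93 cycles. For most of the 21 the tissue difference was thus one of how many sperm samples crossed, not of how early they did. Whether an undetermined well stands for an absent miRNA or a failed reaction was not tested. Wells 369 and 373, also chosen after their values were seen, crossed in the sperm of the same rats, 10, 19 and 20, and both were undetermined in daughter 41.6 while crossing in the other 5 daughters.

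The 13 assays with no sperm Ct were mostly of low abundance, with a mean mammary gland Ct of 28.8 to 36.3 and a median of 34.2. All 13 detected mammary gland assays that never crossed in sperm were by construction among the 48, since a sperm mean of 40 meets the gap in each. Of these, 5 crossed in all 6 mammary gland samples. Well 288, chosen after its values were seen, had Ct values of 29.5, 31.3 and 28.8 (lard) and 31.0, 30.01 and 30.8 (corn oil), an SD of 0.96 cycles over 6 samples. At the other end, well 601 on the second card, chosen in the same way, crossed at 14.1, 14.7 and 24 in daughters 25.5, 31.2 and 60.5 and was undetermined in the other 3. Its SD was 12.8 cycles, the largest of the 48, and its early values stand beside undetermined wells in both diet groups.

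**Figure D3:**
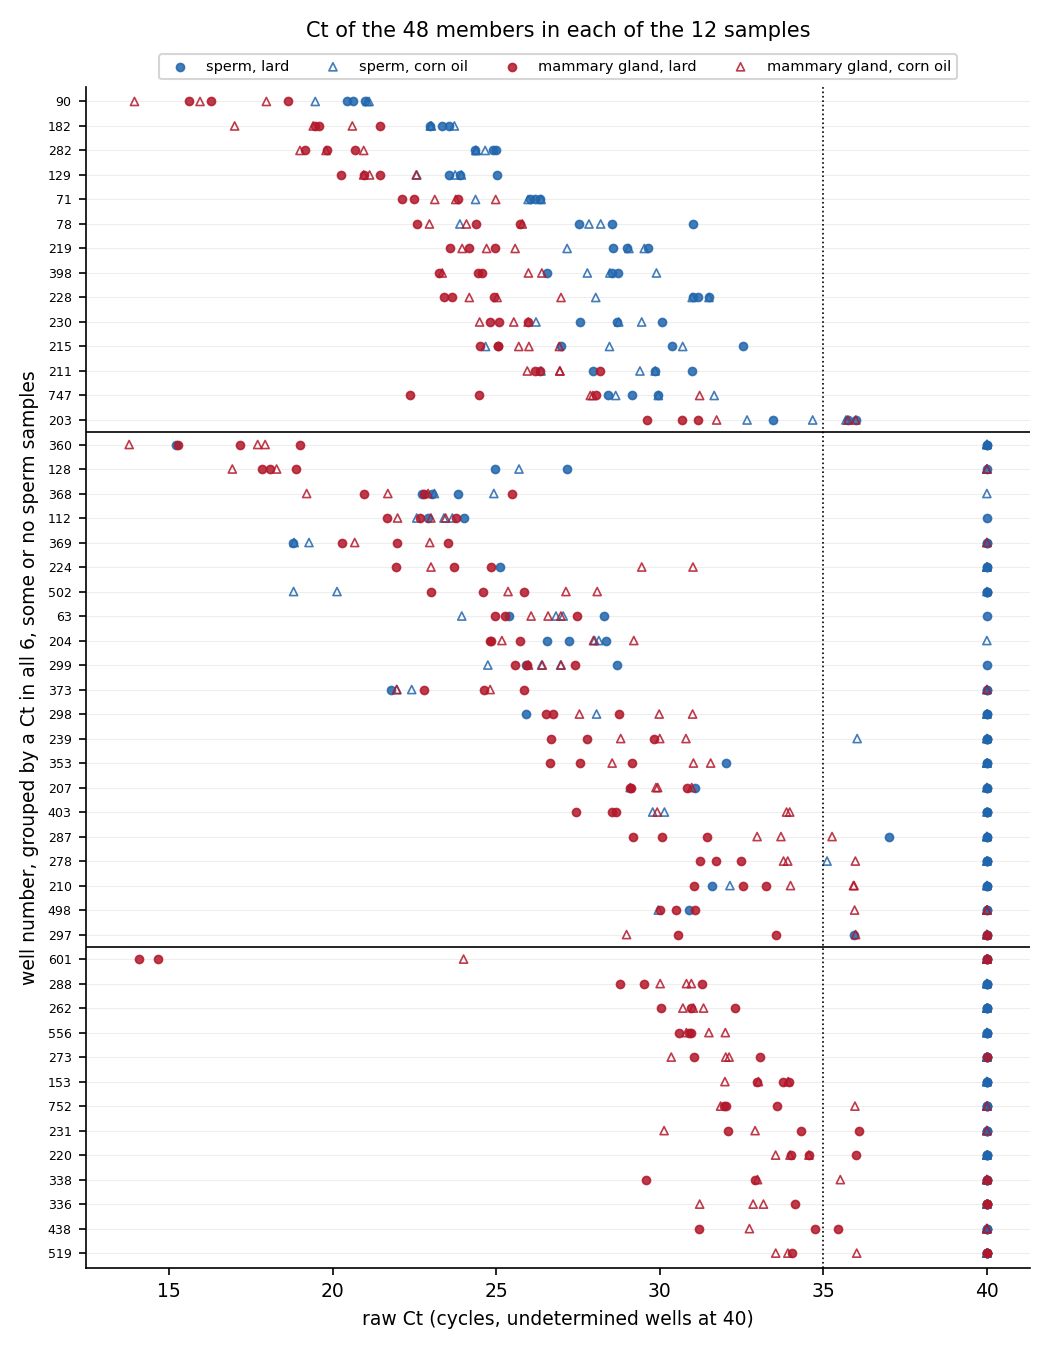
Raw Ct (horizontal, cycles) of each of the 48 assays (rows, by well number) in the 12 samples, with sperm in blue, mammary gland in red, lard as filled circles, corn oil as open triangles, the limit of 35 dotted and undetermined wells at 40. The upper block of 14 assays shows mammary gland points left of all sperm points in 8 of them and overlapping in the others, the middle block of 21 sperm points at 40 beside sperm points that cross, in 4 of them only after cycle 35, and the lower block of 13 every sperm point at 40.

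The first card held 38 of the 48 assays and the second 10. This was 15.0% of the 253 detected assays of the first card and 6.80% of the 147 of the second, and the first card gave 79.2% of the 48 against 63.2% of all detected assays. The 10 of the second card were later, with a median mean mammary gland Ct of 30.8 against 26.5 for the 38. By kind, the first card held 12 with a Ct in every sperm sample, 18 with some and 8 with none, and the second card 2, 3 and 5. The median gap of the 48 was 4.64 cycles for the first card and 5.04 for the second. Over all detected assays, the 48 included, it was -1.54 for card 1 and -2.72 for card 2. The fixed limit of 2 cycles thus lay further from the median assay of card 2. Its part in the smaller share of the 48 there was not tested.

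Within the first card the assays lay unevenly. The earlier wells of the card, up to its middle, held 9 of the 48 among 149 detected assays (6.04%), and the later wells held 29 among 104 (27.9%). The densest stretch was wells 193 to 240, with 13 among 36 detected assays (36.1%), and wells 1 to 48 held none among 42. In wells 193 to 240 the detected assays outside the 48 had a median gap of -2.23 cycles and those of wells 1 to 48 one of -2.45, all of them under 2 cycles by definition. The order of miRNAs on the card is not known here, and position was described without a test.

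**Figure D4:**
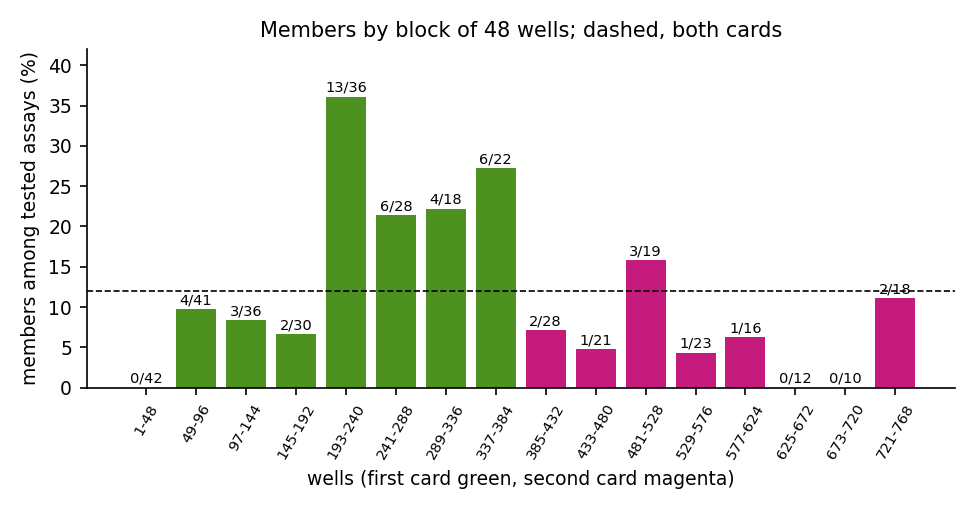
Bars give the share (%) of detected mammary gland assays that belong to the 48, for blocks of 48 wells in well order on the first (green) and second card (magenta), with counts above the bars and the share over both cards, 12%, dashed. The highest bar is wells 193 to 240, with 13 of 36.

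For paternal diet, log2 relative expression was computed by subtracting the Ct of an assay from the mean Ct of the controls that geNorm retained on that card in that sample, so that 1 unit is about a doubling and a negative difference means less in corn oil than in lard. In the mammary gland, 15 of the 48 assays (31.2%) were lower when the sire was fed corn oil instead of lard, at an unadjusted p of 0.05 or less in limma, where 23.2% of all 400 tested assays were. Only 2 were higher, against 0.75% of all tested. None had a Benjamini-Hochberg adjusted p under 0.1 in limma, with a smallest value of 0.167, where 0.25% of all tested did and 17 of the 48 had an unadjusted p of 0.05 or less. An equal-variance test on the same values, used in the methods of the study, gave 11 lower, 1 higher and none after adjustment, beside 86, 2 and 1 of all 400. The number at an adjusted p under 0.1 in limma was larger under other settings, with 16 of the 48 and 137 of all 400 relative to the 4-well assay, 14 and 77 without daughter 41.6, and 8 of 30 and 64 of 289 when only assays under 35 in all 6 samples were tested.

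The diet groups did not overlap for 18 of the 48 with corn oil below lard, compared with 34.5% of all tested, and for 2 with corn oil above, compared with 1.5%. The median difference was -1.42 on the log2 scale over the 48 and -1.03 over all 400. A difference below 0 was found for 39 of the 48, and for 84.5% of all tested, so with these controls the downward direction was shared by most tested assays. With the global mean as reference 26 of the 48 and 189 of all 400 were below 0. The count of 15 was 7 on raw Ct, with the reference wells alone or with the global mean, where 30, 31 and 23 of all 400 were lower. Leaving out daughter 25.5, 29.1, 49.2 or 60.5 brought it to 4, 6, 7 and 8, beside 41, 49, 41 and 54 of all 400. With daughter 41.6 as the only corn oil sample 8 of the 48 and 27 of all 400 were lower and none was higher, and the median difference was -0.71 over the 48 and -0.57 over all 400.

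By kind, 11 of the 21 assays with a Ct in some sperm samples were lower in the mammary gland of corn oil daughters, as were 3 of the 14 with a Ct in all sperm samples and 1 of the 13 with none. The median differences were -2.95, -1.05 and -0.70. Among tested assays outside the 48, 5 of 33 with a Ct in some sperm samples and 73 of 319 with a Ct in all were lower. The kinds were set from these sperm samples and compared after their values were seen, so these counts are a description. On the first card 12 of 38 were lower (31.6%), beside 77 of all 253 tested there (30.4%), and on the second 3 of 10, beside 16 of 147 (10.9%). With daughter 41.6 as the only corn oil sample, 5 of the 21, 1 of the 14 and 2 of the 13 were lower, 6 of them on the first card and 2 on the other. Beside these stood 2 of 33 and 17 of 319 outside the 48 with a Ct in some and in all sperm samples, and 19 of all 253 and 8 of all 147 on the respective cards. In 5 of the 15 lower assays fewer than 3 corn oil daughters had a Ct under 35, and in 1 of these 5 none had, so these 5 met the detection limit only with the lard daughters, the group where they were high. Among assays under 35 in all 6 daughters, 10 of the 30 such assays of the 48 were lower, beside 78 of all 289.

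Well 353, on the first card, had the largest decrease among those of the 48 with a Ct under 35 in all 6 daughters and no overlap of the diet groups. Its Ct was 27.6, 29.2 and 26.7 in daughters of lard-fed and 28.5, 31.0 and 31.6 in daughters of corn oil-fed sires. On raw Ct the groups overlapped, since daughter 41.6 crossed before daughter 29.1. Relative expression was -11.03, -11.03 and -11.14 (lard) and -12.30, -16.35 and -14.61 (corn oil), without overlap. The difference was -3.36 ± 1.05 on the log2 scale (SE, n = 3 per group, limma, Benjamini-Hochberg adjusted p = 0.178). With daughter 41.6 as the only corn oil sample it was -1.23.

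Well 298, also on the first card, was next. Its Ct was 26.5, 28.7 and 26.7 (lard) and 27.5, 29.98 and 31.0 (corn oil), and its relative expression -9.97, -10.62 and -11.21 (lard) and -11.30, -15.30 and -14.06 (corn oil). Daughter 41.6 lay just below the lowest lard daughter and the other 2 well below. The difference was -2.95 ± 1.10 (SE, n = 3 per group, limma, adjusted p = 0.196), and -0.70 with daughter 41.6 as the only corn oil sample. In 11 of the 15 lower assays both of these daughters crossed later than daughter 41.6, as they did in 19 of the 48.

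The 2 assays that were higher in corn oil daughters were both near the limit of detection, had no Ct in sperm, and were chosen after their values were seen. Each had a Ct under 35 in 1 lard daughter, with 3 corn oil daughters for well 336 and 2 for well 519, so neither would have met the detection limit without the group where it was high. Well 336 was undetermined in daughters 25.5 and 29.1, and crossed at 34.1 in daughter 31.2 and at 32.9, 33.2 and 31.2 in corn oil daughters. Its difference of 4.86 ± 1.62 (SE, n = 3 per group, limma, adjusted p = 0.178) depends on the value of 40, and was 1.53 with every Ct above 35 set to 35, when its unadjusted p was above 0.05, and 4.71 with daughter 41.6 as the only corn oil sample. Over the alternative settings, its unadjusted p in limma or the equal-variance test was above 0.05 in 8 and not in 9. Well 519 on the second card was undetermined in the same 2 daughters, and crossed at 34.0 in daughter 31.2 and at 33.9, 33.5 and 36.02 in corn oil daughters. It differed by 4.95 ± 1.20 (SE, n = 3 per group, limma, adjusted p = 0.178), by 1.96 with Ct above 35 set to 35, and by 4.29 with daughter 41.6 as the only corn oil sample. The difference was 3.52 without controls and 3.13 relative to the 4-well assay, each with an unadjusted p above 0.05.

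Because the choice of controls moved these counts, each assay was tested with 5 references, namely the selected controls, the reference wells, the 4-well assay, the global mean and raw Ct. Of the 48, 6 were lower in limma with p of 0.05 or less under each of the 5, where 4.5% of all tested were, and 1 was higher (well 336, which met the detection limit through the group where it was high), where 0.25% of all tested were. The 6 were late assays, with a mean Ct of 28.2 to 32.3 in lard and 32.6 to 38.7 in corn oil daughters, and differences of -6.69 to -2.95. The first card held 4 of them, beside 7 of all 253 tested there, and the second 2, beside 11 of all 147. Of the 6, 5 had a Ct in some sperm samples and 1 in all. All 5 of the assays that met the detection limit only with the lard daughters are among the 6. Among assays under 35 in all 6 daughters, 1 of the 30 of the 48 was lower under each reference, beside 6 of all 289. The 6 were picked for a p of 0.05 or less under these references, so that their direction under other settings is in large part fixed by the choice. When 1 daughter was left out, 4 to 6 of them had a p of 0.05 or less, as had 3 of them with daughter 41.6 as the only corn oil sample.

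**Figure D5:**
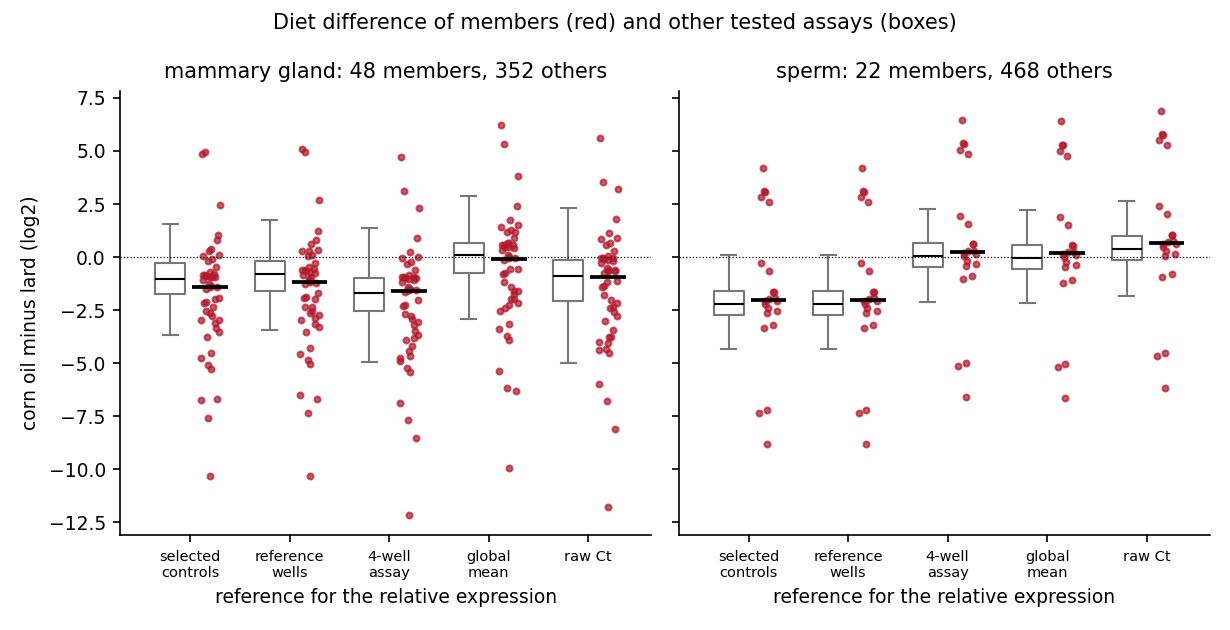
Corn oil minus lard difference (vertical, log2, for raw Ct the difference with its sign turned) with 5 references (horizontal), in the mammary gland (left) and sperm (right), where red points are the assays of the 48 that were tested, thick lines their medians, and boxes the quartiles of the other tested assays with whiskers to the furthest value within 1.5 box lengths. The mammary gland median moves from -1.42 with the selected controls to -0.09 with the global mean, and the sperm median from -2.0 to 0.18.

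In sperm 22 of the 48 met the detection limit, 20 of them on the first card. Of these, 2 were lower with corn oil at an unadjusted p of 0.05 or less in limma, where 11.2% of all 490 tested assays were, and none was higher, where 0.408% were. None had an adjusted p under 0.1 in limma, where 0.0% of all tested did, and the equal-variance test gave none in either direction, beside 44 lower and 0 higher of all 490. The 2 lower became 0 without rat 9 and 4 without rat 11, beside 29 and 175 of all 490. They became 8 with undetermined wells missing (170 of all 490), and 5 of 13 when all 6 had to be under 35 (174 of 400). At an adjusted p under 0.1 in limma these last settings gave 1 and 2, beside 25 and 90. Corn oil lay wholly below lard for 7 of the 22, compared with 42.9% of all tested. A difference below 0 was found for 17 of the 22 and for 91.0% of all tested. With each of the 5 references none of the 22 was lower or higher at p at or below 0.05, where 0.0% and 0.204% of all tested were. The median difference was -2.0 over the 22 and -2.19 over all 490, and without rat 9, fed lard, it was -0.99 and -1.31. Relative expression of well 90 was 4.22 in rat 9 and -1.91 to 0.87 in the other rats, at a raw Ct of 19.5 to 21.1 in every rat. The controls retained on the first card thus crossed later in rat 9 than in the others. On raw Ct the median difference turned to 0.68, where that of all 490 was 0.40. No direction for these assays in sperm can therefore be given apart from the controls.

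Well 747 on the second card was the one decrease in sperm with a Ct under 35 in all 6 samples. Its sperm Ct was 29.9, 28.4 and 29.1 (lard) and 28.7, 31.7 and 29.96 (corn oil). On raw Ct the groups overlapped. Relative expression was -5.32, -7.42 and -8.17 (lard) and -8.48, -11.82 and -10.59 (corn oil), a difference of -3.33 ± 1.31 (SE, n = 3 per group, limma, adjusted p = 0.234) that was -0.92 on raw Ct. The other was well 368, chosen after its values were seen, with a Ct of 23.0, 23.8 and 22.7 (lard) and of 23.1 and 24.9 in rats 19 and 20, while rat 18 was undetermined. Its difference of -8.82 ± 3.77 (SE, n = 3 per group, limma, adjusted p = 0.234) was -3.93 without rat 18.

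The diet difference was compared between the tissues for the 22 assays tested in both. None had an interaction of diet and tissue with p of 0.05 or less in limma, where 5.39% of all 371 tested assays had, and the smallest p was 0.0523 with an adjusted p of 0.602. The controls of the first card were not the same in both tissues, so a diet difference of the controls enters this comparison. Relative to the 4-well assay in both tissues, 3 of the 22 and 79 of all 371 had a p of 0.05 or less in limma. None of these 22 was lower in corn oil at p at or below 0.05 in both tissues, where 2.16% of all 371 were, and the other 26 did not meet the detection limit in sperm.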

How the data were processed

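The authors deposited the Ct of each well without normalization, 1 column per sample, with 40 for undetermined wells. Reverse transcription started from 50 ng of total RNA with pooled primers, followed by preamplification and 40 cycles on TaqMan rodent miRNA cards. RNA was extracted with Trizol per the labels and with a column kit per the methods of the study. How the threshold was set is not given in the sources used here. Precision is limited by 3 samples per group. A second deposited table holds the authors' ratio of corn oil over lard per well and tissue and was not used. All 12 value columns of the Ct table were mapped to samples and 0 were left out. The 12 control wells (3 assays per card, 1 of them in 4 wells) are not named in the files and were taken from an earlier analysis of these data. The assays described, the control wells and the tests were chosen with earlier results of these data known.

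On each card and in each tissue, geNorm stability kept 2 of the 3 controls. In the mammary gland card 1 kept the 4-well assay and reference well 179 and card 2 its pair of reference wells, and in sperm each card kept that pair. A tissue's tested assays were those for which 3 or more of its 6 samples crossed before cycle 35, fitted with lmFit and eBayes of limma 3.58.1 in R 4.3.3, two-sided, on the samples of that tissue, with Benjamini-Hochberg adjustment over all tested assays. The fit was tested on simulated data. Tables and figures were made with Python 3.11.15, pandas 2.3.3 and matplotlib 3.10.9. Wells named were the 2 with the lowest mean mammary gland Ct (90 and 360), the 2 with the widest gap (360 and 224) and, per tissue, up to 2 with the largest decrease and 2 with the largest increase at p at or below 0.05, a Ct under 35 in all 6 samples and no overlap of the diet groups. No increase met this rule, and any other well is said to have been chosen after its values were seen. Alternatives were other controls, no controls, the global mean of each card, late or undetermined wells treated otherwise, other detection limits, limma with trend and robust fitting, the equal-variance test, and leaving out samples.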

Additional observations from a re-analysis of the deposited data

How the results depend on the processing

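No paired analysis was possible because no replicate number occurs in more than 1 group. The set of 48 assays became 154 relative to the reference wells and 123 relative to the median assay (each keeping all 48), 30 when all 6 mammary gland samples had to be under 35, 20 with undetermined wells missing (19 of the 48 kept), and 42 to 54 when 1 sample was left out. Missing wells, and leaving out daughters 49.2 and 60.5 together, were alternatives chosen after seeing the data for the set of assays, and the latter also for the diet results, where it leaves 1 corn oil daughter that is assumed to vary like the lard daughters. In the mammary gland, the 15 lower assays became 7 on raw Ct (30 of all 400), 7 with the reference wells (31), 9 with all 3 controls (60), 7 with the global mean (23), 8 without both daughters (27), and 4 (without 25.5, 41 of all) to 18 (without 41.6, 117) when 1 daughter was left out. The 2 higher became 1 on raw Ct (1 of all 400), with the 4-well assay (1), with undetermined wells missing (3 of 399), with Ct above 35 set to 35 (2) and in the equal-variance test (2). They became 4 with the global mean (20 of all 400, where the usual controls gave 3), 0 with a Ct under 35 in all 6 (2 of 289), and 1 to 2 when 1 was left out. The 0 at adjusted p under 0.1 became 1 on raw Ct (3 of all 400), 16 with the 4-well assay (137), 8 with a Ct under 35 in all 6 (64 of 289), 3 without both daughters (13), and 0 to 14 when 1 was left out (14 without 41.6, 77 of all). The median of -1.42 was -0.087 with the global mean, -0.94 on raw Ct, -0.935 with undetermined wells missing, -0.71 without both daughters, and -1.70 to -1.12 when 1 was left out. In sperm, the 2 lower became 0 on raw Ct (3 of all 490), with the 4-well assay (4), the global mean (7) and the equal-variance test (44). They became 1 with all 3 controls (59 of all 490), 8 with undetermined wells missing (170), 5 when all 6 had to be under 35 (174 of 400), 4 of 48 with no detection filter (57 of all assays on the cards), 3 with Ct above 35 set to 35 (90) or with trend and robust fitting (109), and 0 (without rat 9, 29) to 4 (without rat 11, 175) when 1 was left out. The 0 higher became 1 with no filter (3 of all assays on the cards) and 0 to 1 when 1 was left out (1 without rat 10, 6 of all 490). The 0 at adjusted p under 0.1 became 1 with undetermined wells missing (25 of all), 2 when all 6 had to be under 35 (90 of 400), and stayed 0 when 1 was left out. The sperm median of -2.0 reversed to 0.68 on raw Ct, 0.24 with the 4-well assay and 0.18 with the global mean, and was -2.90 to -0.99 when 1 was left out. The 0 interactions became 1 on raw Ct (26 of all 371), with the reference wells (18) and with Ct above 35 set to 35 (25), 3 with the 4-well assay (79), with undetermined wells missing (33 of 370) and with no filter (154 of all assays on the cards), 2 with the global mean (33) and with a Ct under 35 in all 6 (24 of 262), and 0 to 2 when 1 was left out. The cause of these shifts was not tested. The interaction was not run with the equal-variance test.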

Other observations

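Well 128 on the first card, chosen after its values were seen, had the lowest mean mammary gland Ct after well 360 among the 21 assays with a Ct in some sperm samples, over the wells that crossed, and the widest gap of the 21 over those wells, 7.93 cycles. It crossed at 27.2, 24.96 and 25.7 in the sperm of rats 9, 10 and 19, and at 18.1, 18.9, 17.9, 18.3 and 16.9 in daughters 25.5, 29.1, 31.2, 41.6 and 49.2, and was undetermined in daughter 60.5 and in the other 3 rats.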
